A study of Drosophila melanogaster with 12 samples.

Results

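The Hedgehog pathway genes described here are *hh*, *disp*, *ptc*, *smo*, *ihog*, *boi*, *cos*, *fu*, *Su(fu)* and *ci*, chosen by name as the ligand, its release factor, the receptors and the core of the intracellular cascade. All 10 symbols matched 1 gene each among the 17737 genes of the RNA-immunoprecipitation sequencing (RIP-seq) table, and 8 of them were listed among the 6555 genes of the mRNA sequencing (RNA-seq) table, where *boi* and *disp* were not listed. That table lists only genes selected in the authors' comparison of both genotypes, and 6472 of the 17737 RIP-seq genes are in it. Of the 10971 genes with a RIP-seq count, 5871 were listed. Among genes with at least 10 counts in every RIP-seq library, 4152 of 6335 were listed, beside 6 of 8 Hedgehog genes. None of the 10 transcripts differed between pull-downs of Bam-GFP and of GFP alone at an adjusted p under 0.05, against 2.2% of all genes tested (241 of 10971). *ptc* and *smo* were lower and *ihog* was higher in every Bam-GFP library than in every control library. None of these 3 differences passed the test even before adjustment. Groups apart in either direction were seen for 13.6% of all genes tested and 18.3% of those that reached 10 counts in each library.

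The study asked which transcripts change in *Drosophila* ovaries without Bag of marbles (Bam), the factor that starts differentiation of germline stem cell daughters, and which transcripts are bound by Bam. In RNA-seq, GFP-positive cells were sorted from dissociated ovaries of 3 samples of *bam*-/- flies (bam_delta86/bam_delta86, a near-complete deletion of the gene) and 3 samples of flies with an intact *bam*, both carrying *vas*-GFP, which tags the germline protein Vasa. In RIP-seq, GFP-binding beads were added to lysates of whole ovaries in 3 samples with Bam-fTRG-GFP, a tagged copy of *bam*, and 3 control samples with Bam-Gal4 driving UASp-GFP, so that GFP alone is made in the cells in which the *bam* promoter is active. The control also measured the background of the beads. Ovaries of many flies were pooled for each sample and the age of the flies was not given in the sources used here. Libraries of the lysates before the pull-down were not analysed here, so that a difference between the pull-downs and a difference between the ovaries of the 2 genotypes cannot be told apart.

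Hedgehog (Hh) is a secreted, lipid-modified signal. Dispatched (Disp) releases it from the cells that make it, and interference hedgehog (Ihog) and brother of ihog (Boi) are related co-receptors that bind it together with Patched (Ptc). Without Hh, Ptc keeps the transducer Smoothened (Smo) inactive. The kinesin-like scaffold Costal-2, encoded by *cos*, then holds the transcription factor Cubitus interruptus (Ci) in the cytoplasm for processing into a repressor. With Hh, active Smo acts through Costal-2 and the kinase Fused (Fu), full-length Ci is freed from Suppressor of fused (Su(fu)) and turns on targets, among them *ptc* itself. In the germarium Hh is made mainly by terminal filament and cap cells and is received by escort cells and follicle stem cells, all of them somatic. Fu has a further role in the germ line, where it acts with the ubiquitin ligase Smurf on the BMP receptor Thickveins.

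The genes lie apart from each other in the Release 6 assembly. *boi* (FBgn0040388) spans 2444167 to 2470043 and *fu* (FBgn0001079) 18657755 to 18661204 on chromosome X. *smo* (FBgn0003444) spans 277582 to 282167 and *ihog* (FBgn0031872) 6945464 to 6948808 on 2L. *cos* (FBgn0000352) spans 7382176 to 7387115 and *ptc* (FBgn0003892) 8649649 to 8665223 on 2R. *disp* (FBgn0029088) spans 5849697 to 5856311, *Su(fu)* (FBgn0005355) 12689873 to 12691468 and *hh* (FBgn0004644) 23128169 to 23141906 on 3R. *ci* (FBgn0004859) spans 47710 to 57041 on the small chromosome 4. The spans of 6 of the 10 share bases with another annotated gene, which makes their counts less certain, as it is not given in the sources used here whether the RIP-seq counting used strand. The shared part was largest for *fu*, with 21.3% of its span inside *CG6696*, and was 14.2% and 10.9% for *smo* with *CG17078* and *CG11601*, 14.4% for *disp* with *CG34287*, 10.8% for *boi* with *z*, 5.84% for *ci* with an antisense RNA and 5.14% for *ptc* with a long noncoding RNA.

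The RIP-seq libraries held 7697440 to 12704088 counts on genes, so that a count of 0 allowed a level of up to 0.252 to 0.371 CPM, the counts of a gene per 1000000 counts of a library total scaled by TMM factors. The 10 Hedgehog genes together took 5010 to 10053 of these counts, or 0.0651% to 0.0791% of a library, with 0.0689% to 0.0791% in Bam-GFP and 0.0651% to 0.071% in the control. *bam* itself was at 51.5, 50.1 and 46.8 CPM in Bam-GFP replicates 1 to 3 and at 16.7, 11.7 and 3.32 CPM in the control replicates, higher in every library of the flies that carry the tagged copy. The summary line of alignments to several places held 79.3% to 89.6% of everything counted in the table, which is no share of reads, since a read can be counted there once for each place. Log2 CPM correlated by 0.875 to 0.932 among the Bam-GFP libraries, by 0.89 to 0.939 among the controls and by 0.82 to 0.927 between the groups, across 7513 genes. Among cell type markers, the summed level of 10 follicle cell genes was 5129 to 8957 CPM in Bam-GFP and 1979 to 3119 CPM in the control, with 8 of 10 called higher. In such bulk samples more cells of a type and more RNA per cell cannot be told apart. 9 germ line markers summed to 3973 to 6174 and 3168 to 4526 CPM, with 2 called higher and 1 lower, and a median log2 fold change of 0.018. The higher calls were *bam*, of which the Bam-GFP flies carry a tagged copy, and *osk*. *osk* was at 3936, 1781 and 4058 CPM in Bam-GFP and at 1497, 923.8 and 1498 CPM in the control, so that it weighed heavily on the sums. *zpg* was the gene called lower. Markers of muscle (170.5 to 251.0 and 198.1 to 627.9 CPM over 8 genes) had no call, nor had those of niche and escort cells (354.2 to 1220 and 207.9 to 718.2 CPM over 9 genes, *hh* included and *en* at 0). *fax* made up most of this last sum, at 1133, 299.3 and 425.3 CPM in Bam-GFP and 283.9, 181.5 and 672.3 CPM in the control. Apart from *fax* and *dally*, these niche and escort cell genes were at 2.97 CPM or less in every library. The part of these marker differences in the results below was not tested.

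*hh* was close to the floor in the pull-downs. Its counts were 0, 0 and 31 in Bam-GFP replicates 1 to 3 and 0, 0 and 5 in the control replicates, or 2.60 and 0.535 CPM in the third of each group. The transcript of the ligand was thus seen only in the pair of libraries numbered 3, where the Bam-GFP library held more of it. With 4 libraries at 0 the fitted change had a 95% interval from -5.04 to 8.15 on the log2 scale (adjusted p = 0.897, edgeR's quasi-likelihood test), and a difference was not detectable at this depth.

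*disp*, which encodes the release factor for lipid-modified Hh, was well covered in every library. It was at 82.1, 87.5 and 142 CPM in Bam-GFP and at 89.3, 49.9 and 89.6 CPM in the control. The groups overlapped, with Bam-GFP replicate 3 above and control replicate 2 below all others. The means were 103.9 ± 33.1 and 76.3 ± 22.8 CPM (SD, n = 3), and the log2 fold change was 0.45 ± 0.37 (SE; 95% interval -0.28 to 1.18; edgeR adjusted p = 0.893).

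**Figure D1:**
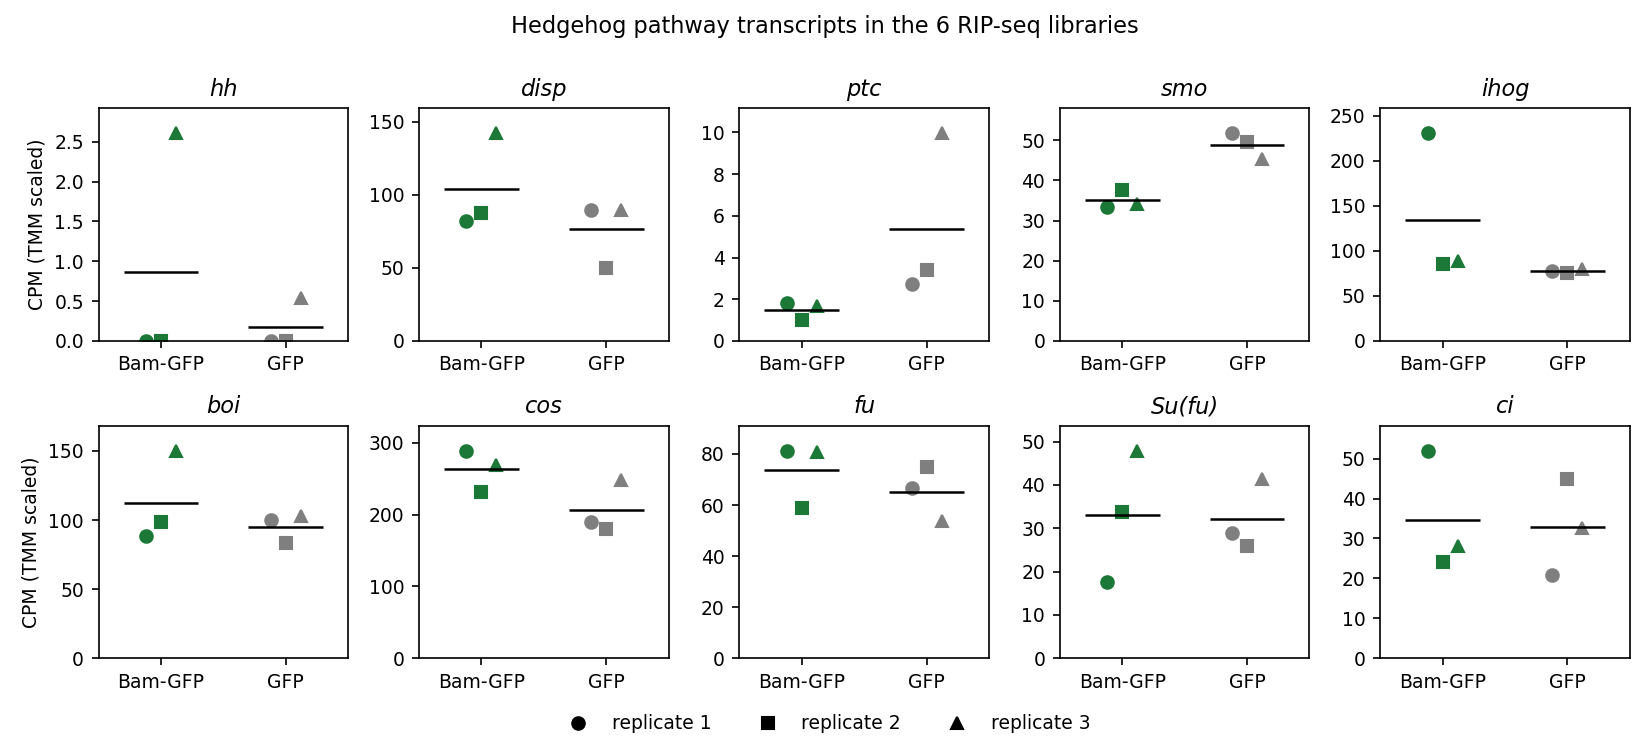
Level of each of the 10 Hedgehog pathway genes in the 6 RIP-seq libraries, in CPM (y axis, linear, starting at 0, with a scale of its own for each gene), for Bam-GFP (green) and the GFP control (grey). Symbols mark the replicate number and the black line the mean of 3 libraries. The groups are apart for *ptc*, *smo* and *ihog*, while *ihog* in Bam-GFP replicate 1 (230.6 CPM) stands far above the other 5 libraries (75.0 to 88.6 CPM).

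Among the receptors, *ptc* had the lowest level in Bam-GFP relative to the control. Its levels were 1.80, 0.990 and 1.68 CPM in Bam-GFP and 2.75, 3.40 and 9.95 CPM in the control, from 17, 8 and 20 against 29, 29 and 93 counts. All 3 Bam-GFP libraries lay below all 3 control libraries, and the control libraries differed among themselves by more than the Bam-GFP libraries did. The means were 1.49 ± 0.439 and 5.37 ± 3.98 CPM (SD, n = 3), with a log2 fold change of -1.65 ± 1.46 (SE; 95% interval -4.51 to 1.21). The adjusted p was 0.895 in edgeR, so that a change of *ptc*, the receptor that is also a target of the pathway, was not detectable from these few counts.

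*smo* encodes the seven-pass membrane protein that Ptc holds inactive. It was at 33.3, 37.6 and 34.2 CPM in Bam-GFP and at 51.7, 49.5 and 45.3 CPM in the control, again with no overlap. The gap between the means of 35.0 ± 2.27 and 48.8 ± 3.28 CPM (SD, n = 3) was larger than the spread within either group. The log2 fold change of -0.48 ± 0.47 (SE; 95% interval -1.39 to 0.44) nevertheless did not pass edgeR's test (adjusted p = 0.895), whose error also draws on the spread of the other genes. Non-overlapping groups are no rare event in these libraries: 13.6% of all genes tested had them, 6.4% with Bam-GFP higher and 7.24% with Bam-GFP lower, and the share was 18.3% among the 6335 genes that reached 10 counts in each of the 6 libraries.

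*ihog* encodes a co-receptor with immunoglobulin and fibronectin domains that binds Hh directly. Its levels were 230.6, 85.2 and 88.6 CPM in Bam-GFP and 77.2, 75.0 and 79.6 CPM in the control. Every Bam-GFP library was above every control library, but replicates 2 and 3 only slightly so, and most of the difference came from replicate 1. The means were 134.8 ± 83.0 and 77.3 ± 2.30 CPM (SD, n = 3). The log2 fold change was 0.63 ± 0.36 (SE; 95% interval -0.080 to 1.34), with an adjusted p of 0.655 in edgeR. Without Bam-GFP replicate 1 it dropped to 0.17, and without the replicate block, where edgeR gave a log2 fold change of 0.80, its adjusted p was 0.234 and its unadjusted p fell under 0.05.

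*boi*, the paralog of *ihog*, was at 88.2, 98.7 and 150.2 CPM in Bam-GFP and at 100.04, 83.2 and 102.6 CPM in the control. These groups overlapped, and the library that was high for *ihog* was not high for *boi*. The log2 fold change was 0.21 ± 0.36 (SE; 95% interval -0.49 to 0.90; edgeR adjusted p = 0.895). The count ratio of *ihog* over *boi*, which does not depend on the scaling of a library, was 2.61, 0.863 and 0.589 in Bam-GFP and 0.772, 0.901 and 0.776 in the control. This ratio therefore varied more between the Bam-GFP libraries, in both directions from the controls, than between the control libraries.

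In the cytoplasmic complex, *cos* took more counts than any of the other 9 genes in every library, a comparison of counts that also reflects the lengths of the transcripts. Costal-2 is the scaffold that ties Smo to Fu and Ci. *cos* was at 289.1, 231.5 and 268.6 CPM in Bam-GFP and at 189.9, 180.5 and 248.7 CPM in the control. Only Bam-GFP replicate 2 fell below the highest control library. The means were 263.1 ± 29.2 and 206.4 ± 36.9 CPM (SD, n = 3), and the log2 fold change was 0.36 ± 0.32 (SE; 95% interval -0.26 to 0.98; edgeR adjusted p = 0.895). 

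*fu* encodes the serine/threonine kinase that activates full-length Ci. It was at 81.3, 59.0 and 80.8 CPM in Bam-GFP and at 66.6, 75.0 and 53.7 CPM in the control, with overlapping groups. The log2 fold change was 0.18 ± 0.40 (SE; 95% interval -0.61 to 0.96; edgeR adjusted p = 0.903). Its 2 partners at the end of the cascade were at similar mean levels in both pull-downs. *Su(fu)*, whose product holds Ci inactive, was at 17.5, 33.8 and 47.9 CPM in Bam-GFP and at 29.0, 25.8 and 41.4 CPM in the control, with a log2 fold change of -0.038 ± 0.51 (SE; 95% interval -1.05 to 0.97; edgeR adjusted p = 0.991). *ci*, which encodes the zinc finger transcription factor itself, was at 52.0, 24.0 and 28.1 CPM in Bam-GFP and at 20.9, 44.9 and 32.6 CPM in the control, with a log2 fold change of 0.052 ± 0.53 (SE; 95% interval -0.98 to 1.08; edgeR adjusted p = 0.989). For both genes the spread within each group was larger than the difference between the groups, and the intervals still allow a change of about 1 on the log2 scale either way.

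**Figure D2:**
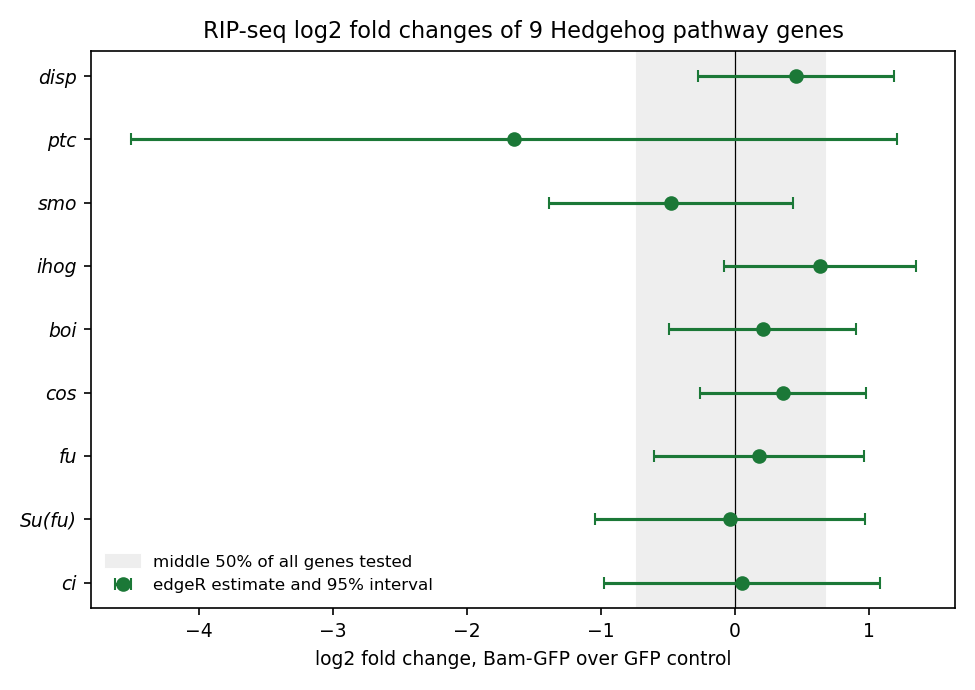
Log2 fold change of Bam-GFP over the GFP control (x axis) for 9 Hedgehog pathway genes (y axis, by role from *disp* at the top to *ci* at the bottom), with edgeR's estimate as points and its 95% interval as bars; *hh*, at 0 in 4 libraries, is left out. The grey band holds the middle 50% of all genes tested, from -0.73 to 0.67, genes with few counts included. All genes tested ran from -9.21 to 10.3, and the 6335 that reached 10 counts in each library from -4.85 to 4.28. Every interval includes 0, and only the estimate for *ptc* lies outside the band.

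Of the 10 Hedgehog genes, 0 had an unadjusted p under 0.05, against 9.57% of all genes tested, and DESeq2's Wald test also gave 0 before and after adjustment. A positive log2 fold change was fitted for 7 of 10, against 47.8% of all genes tested, and their median was 0.19, against -0.049 over all genes. Of the 8 Hedgehog genes that reached 10 counts in each library, all but *hh* and *ptc*, 6 were positive and 0 had an unadjusted p under 0.05, against 13.7% of all genes at that depth. These signs depend on the scaling of the libraries: with library totals alone, which move the median of all genes by -0.21, 4 of 10 were positive.

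Shares of the counts that fell on the 10 genes compare them with each other within a library and need no scaling between libraries. *smo* took 3.80%, 5.71% and 4.05% of these counts in Bam-GFP and 8.24%, 8.42% and 6.43% in the control. *ptc* took 0.206%, 0.150% and 0.199% in Bam-GFP and 0.438%, 0.579% and 1.41% in the control. The lower position of *smo* and *ptc* in Bam-GFP was also seen relative to the rest of the pathway, without overlap between the groups. These are the same counts, over a sum that took a similar part of each library (0.0651% to 0.0791%). For these genes the shares thus largely repeat the order of the CPM and are no separate evidence. *ihog*, in contrast, took 26.3%, 12.9% and 10.5% in Bam-GFP and 12.3%, 12.8% and 11.3% in the control, which overlapped. *cos* took 30.3% to 35.3% of the counts across the 6 libraries, and its groups overlapped, as did those of the remaining 6 genes. These shares are bound to each other, since a high count of *ihog* in Bam-GFP replicate 1 lowers the share of every other gene there.

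The direction of *ptc*, *smo*, *ihog*, *cos* and *disp* was the same under each other scaling, filter, test and left-out library that could be run. The log2 fold change of *smo* ranged from -0.70 to -0.36, that of *ptc* from -2.18 to -1.03, that of *cos* from 0.13 to 0.51, that of *disp* from 0.15 to 0.74 and that of *ihog* from 0.17 to 1.05. For *ptc*, *smo* and *ihog*, whose groups did not overlap, leaving out libraries could hardly reverse the direction, so that its stability there adds little. *boi*, *fu*, *Su(fu)*, *ci* and *hh* changed sign under at least 1 of the alternatives. The number of Hedgehog genes called at an adjusted p under 0.05 was 0 under all 16 alternatives.

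**Figure D3:**
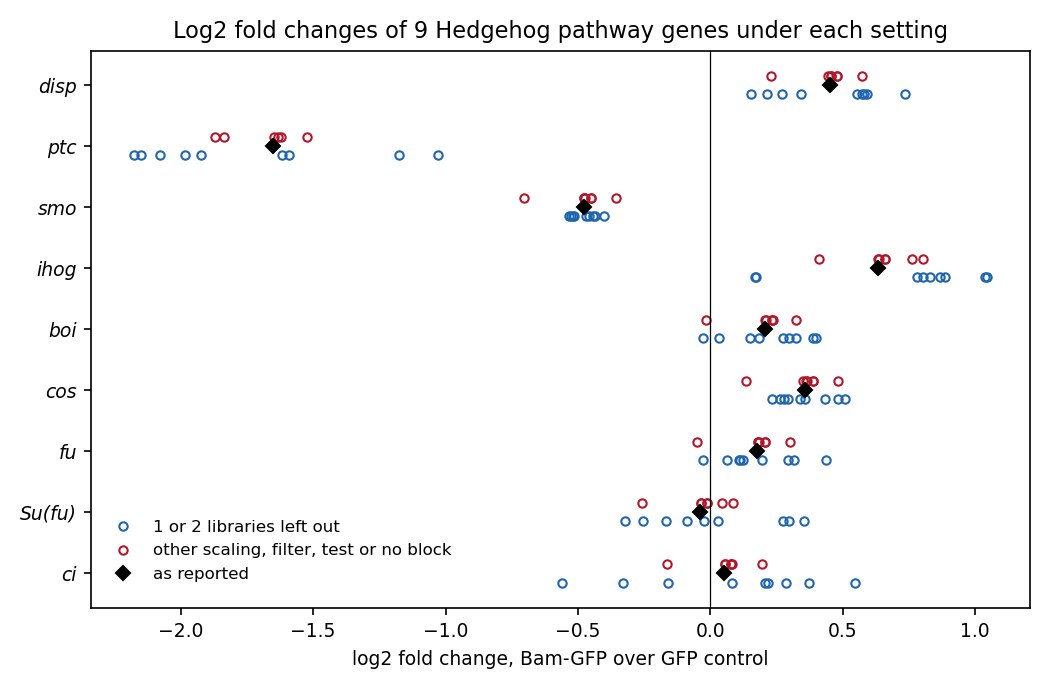
Log2 fold change of Bam-GFP over the GFP control (x axis) for 9 Hedgehog pathway genes (y axis) as reported (black diamonds), under other scalings, filters, tests or without the replicate block (red circles), and with 1 or 2 libraries left out (blue circles); *hh* is left out. *smo* stays between -0.70 and -0.36, *ihog* drops to 0.17 where Bam-GFP replicate 1 is left out, and *boi*, *fu*, *Su(fu)* and *ci* lie on both sides of 0.

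A wider list of 49 pathway genes was read in the same fit to see where the core genes stand. Of these, 44 had a count in 1 or more libraries and were tested, and 2 were called higher and 1 lower in Bam-GFP, beside 1.72% and 0.474% of all genes tested. Before adjustment 2 were higher and 5 lower, against 5.54% and 4.03% of all genes. Their median log2 fold change was -0.015. The 39 that reached 10 counts in each library are those drawn in the plot of further pathway genes.

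Of the 10 genes for processing, release and spread of the ligand, 1 was called higher and 1 lower. *dlp* encodes a glypican, a cell surface proteoglycan that promotes Hh reception. It was at 442.8, 270.8 and 263.5 CPM in Bam-GFP and at 142.3, 106.1 and 179.1 CPM in the control, so that the lowest Bam-GFP library was above the highest control library. *dlp* rose from 142.5 ± 36.5 to 325.7 ± 101.5 CPM (SD, n = 3), a log2 fold change of 1.18 ± 0.32 (SE, edgeR adjusted p = 0.0167). The call was lost under 8 of the alternatives, among them both filters on low counts (adjusted p = 0.0713 with filterByExpr and 0.0568 with a minimum of 10 counts in each library), library totals alone (0.11) and leaving out replicate 1 or 2, Bam-GFP replicate 1 or control replicate 1 or 2, and its adjusted p ranged from 0.00442 to 0.52.

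*apolpp* encodes apolipophorin, the lipoprotein of the hemolymph on which lipid-modified Hh can travel, and is made in the fat body. Its levels were 191.3, 135.2 and 220.7 CPM in Bam-GFP and 623.2, 337.5 and 306.4 CPM in the control. *apolpp* fell from 422.4 ± 174.6 to 182.4 ± 43.4 CPM (SD, n = 3), a log2 fold change of -1.17 ± 0.32 (SE, edgeR adjusted p = 0.0196), with control replicate 1 far above the rest. The call was lost without control replicate 1 (log2 fold change -0.82, adjusted p = 0.496), without Bam-GFP replicate 2, without replicate 1 or 2, with both filters and with totals that hold alignments to several places (adjusted p = 0.221), and the adjusted p ranged from 0.00273 to 0.554. *apolpp* also stands in the list of 6 blood cell and fat body markers, which summed to 150.6 to 248.7 CPM in Bam-GFP and 323.9 to 641.6 CPM in the control with *apolpp* as the only call and *NimC1* at 0. Its place in that list and its change are the same measurement, and the part of fat body tissue in it was not tested.

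None of the 16 genes for kinases, phosphatases and trafficking of Smo was called after adjustment. Their median log2 fold change was 0.015. *mts*, the catalytic subunit of protein phosphatase 2A, had the highest mean CPM of the group and a log2 fold change of 0.53 ± 0.32 (SE, edgeR adjusted p = 0.694). *Herc4*, a ubiquitin ligase of the HECT type, was at 61.2, 67.3 and 89.0 CPM in Bam-GFP and at 149.1, 141.6 and 125.2 CPM in the control. It was the only gene of the group with an unadjusted p under 0.05 and the only one without overlap (log2 fold change -0.95 ± 0.36 (SE), edgeR adjusted p = 0.184). All 16 reached 10 counts in every library. At that depth 13.7% of all genes had an unadjusted p under 0.05 and 18.3% had no overlap, so that 1 of 16 does not stand out.

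Of the 9 genes for processing and turnover of Ci, only *nej* was called. It encodes the acetyltransferase CBP, a coactivator of Ci and of many other transcription factors. *nej* was at 2845, 1212 and 2432 CPM in Bam-GFP and at 953.2, 513.0 and 1207 CPM in the control, and the lowest Bam-GFP library was only just above the highest control library. It rose from 891.0 ± 351 to 2163 ± 849 CPM (SD, n = 3), a log2 fold change of 1.28 ± 0.32 (SE, edgeR adjusted p = 0.00576). The call held under the other scalings, filters and tests, but was lost without replicate 1 or 2 and without each single library other than Bam-GFP replicate 2, with adjusted p from 0.000764 to 0.441 over all alternatives. The log2 fold change itself stayed between 1.002 and 1.57. *nej*, *dlp* and the summed follicle cell markers were each higher in all Bam-GFP libraries than in all controls. Within both groups the follicle cell markers were highest in replicate 2 (8957 and 3119 CPM), where *nej* was lowest. *dlp* was lowest in replicate 2 among the controls, but in replicate 3 among the Bam-GFP libraries (263.5 CPM, beside 270.8 CPM in replicate 2). The part of follicle cells in the differences of *nej* and *dlp* was not tested.

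**Figure D4:**
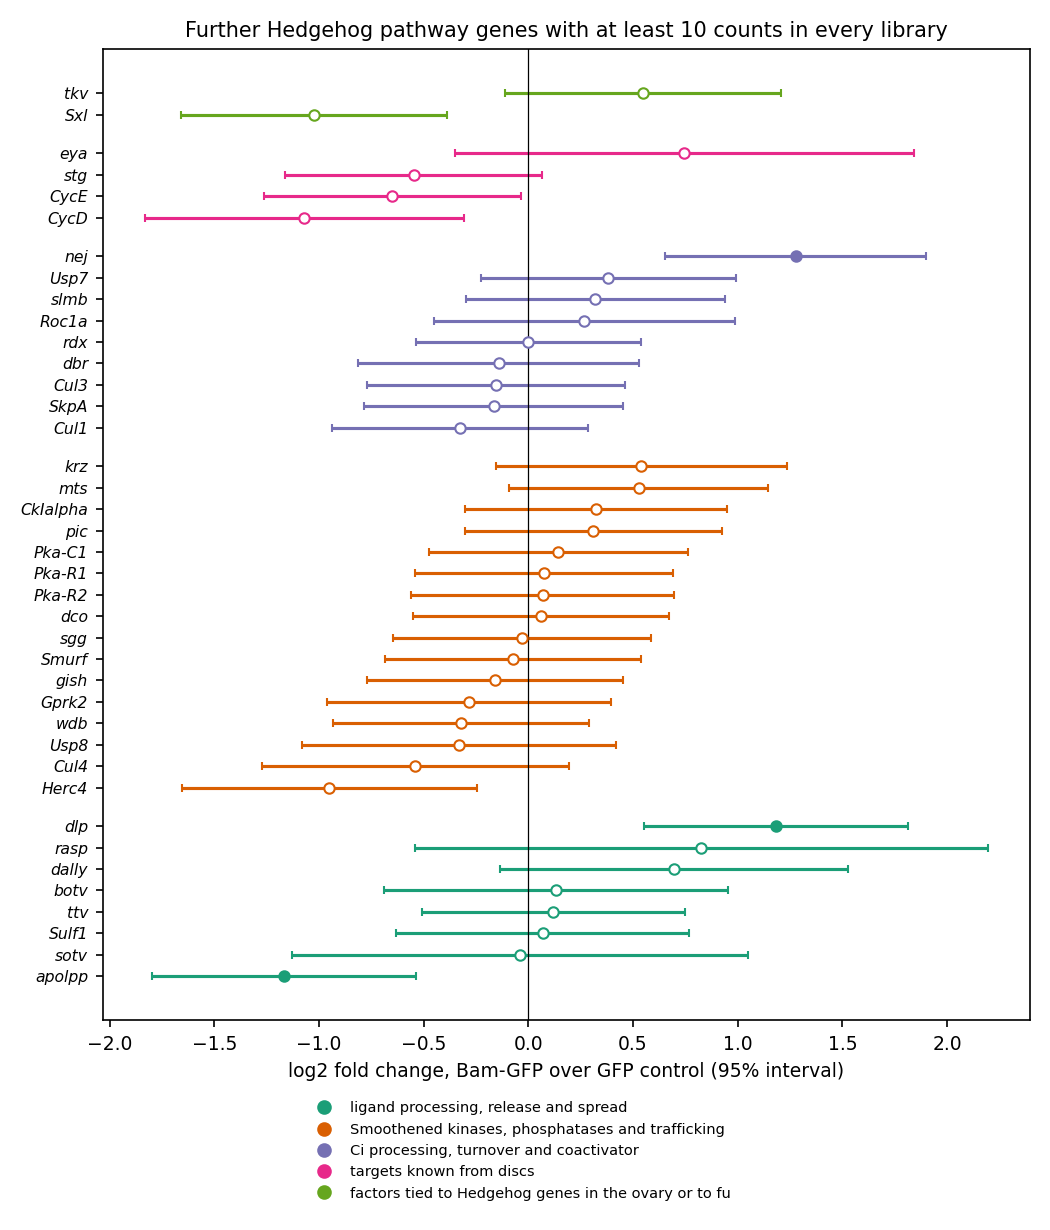
Log2 fold change of Bam-GFP over the GFP control with its 95% interval (x axis) for 39 further pathway genes that reached 10 counts in each library (y axis), grouped by role in colour. Filled points have an adjusted p under 0.05, which holds for *dlp* (1.18), *nej* (1.28) and *apolpp* (-1.17). *Smurf*, a gene in both the Smoothened group and the *fu* group, is drawn once.

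Targets of Hh known from imaginal discs were partly out of reach, as *en*, *kn*, *ara*, *caup* and *wg* had no count in any of the 6 libraries. Of the 12 listed targets 7 were tested and 4 reached 10 counts in each library. Among those tested 3 were lower and 1 was higher in all Bam-GFP libraries, beside 7.24% and 6.4% of all genes. These are the 4 that reached 10 counts, a depth at which 18.3% of all genes had groups apart. The median log2 fold change of the 7 was -0.65, beside -0.049 over all genes. It takes in *tow* (-2.26) and *cas* (-3.88), each at 0 in some libraries, and *dpp* (0.80), with 2 counts in its lowest library. *CycD* and *CycE* encode cyclins that drive growth and entry into S phase, in germ cells as in the soma. *CycD* was at 34.6, 76.2 and 50.3 CPM in Bam-GFP and at 90.5, 106.4 and 127.2 CPM in the control (log2 fold change -1.07 ± 0.39, edgeR adjusted p = 0.15). *CycE* was at 356.0, 463.3 and 421.4 CPM in Bam-GFP and at 658.9, 659.1 and 617.6 CPM in the control (log2 fold change -0.65 ± 0.31, edgeR adjusted p = 0.453). Both had an unadjusted p under 0.05, but neither passed the adjusted test, and *CycD* did so only without Bam-GFP replicate 2 (adjusted p = 0.0311).

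The last group held *Sxl*, *Smurf* and *tkv*, which are tied to Hedgehog genes in the ovary or to *fu*. *Sxl* encodes the RNA-binding protein of female sex determination. It was at 124.9, 185.0 and 88.6 CPM in Bam-GFP and at 232.2, 238.3 and 312.9 CPM in the control, without overlap and with an unadjusted p under 0.05 (log2 fold change -1.02 ± 0.32, edgeR adjusted p = 0.0637). Its adjusted p was under 0.05 with library totals alone (0.016) and without Bam-GFP replicate 2 (0.0114). *Smurf*, the partner of Fu, was at 470.6, 386.3 and 461.9 CPM in Bam-GFP and at 397.4, 407.0 and 605.7 CPM in the control (log2 fold change -0.074, edgeR adjusted p = 0.964), so that neither *fu* nor *Smurf* differed beyond the spread of its libraries. *tkv* was at 160.0, 157.9 and 189.8 CPM in Bam-GFP and at 119.1, 138.1 and 93.3 CPM in the control. Its groups did not overlap, but it was not called (log2 fold change 0.55 ± 0.34 (SE), edgeR adjusted p = 0.716).

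In RNA-seq of the sorted cells, the authors' mean normalized count over all libraries of both genotypes was 508.5 for *hh*, 1125 for *ihog*, 1477 for *smo*, 1505 for *fu*, 1750 for *ptc*, 2049 for *Su(fu)*, 2693 for *cos* and 4274 for *ci*. Over all 6555 listed genes the lowest mean was 17.3 and the median 1357. The means are pooled and give neither a spread nor a direction between *bam*-/- and control cells. Each mean was divided by the mean CPM of the same gene in the GFP control of RIP-seq, a ratio in which the length of a transcript largely cancels, although the 2 tables were normalized separately and from different libraries. The ratio had a median of 64.1 over the 5597 listed genes with a CPM above 0, all of them selected in the authors' comparison, and 90% of them lay between 9.35 and 1635.

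*hh* had a ratio of 2851, above 97.1% of these genes, and rests on a control level of 5 counts in 1 library. *ptc* followed with 326.1, above 82.6%. The ligand and the receptor that is also a target therefore stood higher among the genes of the sorted cells than among those of the control pull-downs. *ci* had a ratio of 130.2 (above 67.3%) and *Su(fu)* one of 63.9, near the median. *smo* (30.3, above 27.0%), *fu* (23.1, above 19.1%), *ihog* (14.6, above 9.79%) and *cos* (13.1, above 8.27%) stood on the other side. The median ratio was 9.88 for the listed germ line markers with a ratio, among which *aub* had 122.6. The germ line marker *bgcn*, with an RNA-seq mean of 3798, was at 0 CPM in every control library and therefore had no ratio and is not in this median. The median was 11.1 for the follicle cell markers and 586.2 for the niche and escort cell markers, which include *hh*. In this last list the well counted *fax* and *dally* had ratios of 20.0 and 146.7, and *hh*, *bab1*, *bab2*, *Wnt4* and *Wnt6*, with higher ratios, were at 2.65 CPM or less in every control library. The sort kept cells high in the germline Vasa-GFP signal and low in the dead cell stain propidium iodide, a gate meant to remove somatic cells. In the sorted cells the RNA-seq means were 503.2 to 41190 for the follicle cell markers and 334.3 to 9523 for the listed germ line markers. These means are not corrected for the lengths of the transcripts. The part of somatic cells in the ratios of *hh* and *ptc* was not tested.

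**Figure D5:**
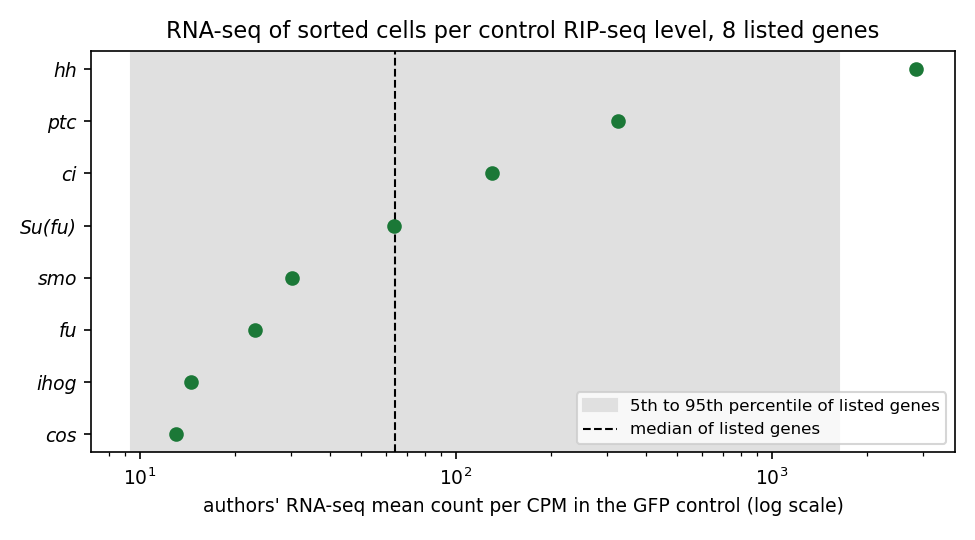
Authors' mean normalized RNA-seq count of the sorted cells divided by the mean CPM in the GFP control of RIP-seq (x axis, log scale) for the 8 Hedgehog pathway genes listed in both tables (y axis). The grey band runs from the 5th to the 95th percentile of 5597 listed genes (9.35 to 1635) and the dashed line marks their median of 64.1. *hh* (2851) lies above the band, and *cos* (13.1) and *ihog* (14.6) lie near its lower end.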

How the data were processed

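RIP-seq was analysed in 3 Bam-GFP and 3 GFP control samples. The authors deposited counts per gene from HTSeq 0.11.0, after alignment with STAR 2.4.0, together with a fold change and a p-value of their paired test, which were not used. For RNA-seq of 3 *bam*-/- and 3 *vas*-GFP samples, the authors' deposited table holds a DESeq2 comparison (log2 fold change, standard error, test statistic, p-value and adjusted p-value, none used) and a mean normalized signal over all libraries, used here as the authors' mean, for genes that their comparison selected. Values of single RNA-seq libraries were not analysed here and their depth is unknown. The columns of the RIP-seq table carry the replicate numbers but not the RIP-seq titles, and were assigned to groups by name within that table. The labels do not say whether replicates are separate collections of flies, so that p-values measure the spread between these samples only.

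All 17737 genes with an identifier were read, 5 summary lines were left out (reads without a gene 0.114% to 0.431%, ambiguous reads 0.499% to 0.932%, alignments to several places 79.3% to 89.6% of all that the table counts, where a read can be counted once for each place), and 10971 genes with a count above 0 in 1 or more libraries were tested with edgeR 4.0.16 in R 4.3.3 (robust quasi-likelihood, TMM factors 0.807 to 1.13, replicate number as a block as in the study's paired test, Benjamini-Hochberg over all tested genes). Standard errors were derived from the F statistic, and 95% intervals and floors of 3 counts cover counting and replicate error only as far as these libraries show it. The fit was tested on simulated data, at an adjusted p under 0.05. It called 30 of 86 genes with a simulated log2 change of 1.5 in either direction and 84 of 114 with 3. Of 10351 unchanged genes it called 4. Most changes of 1.5 were thus missed, and smaller ones were not simulated. Deviations from the group correlated by -0.119, 0.118 and -0.0062 between libraries of the same number, and by -0.168 to 0.133 between unlike numbers. The block pairs libraries of the same number, a pairing that these correlations do not show. Alternatives were RLE factors, library size only, totals with alignments to several places, DESeq2 1.42.0, 2 filters on low counts, no block, and replicates or single libraries left out. Symbols and coordinates came from RefSeq tables of Release 6; no sequence was used. Further genes were named where p or adjusted p was under 0.05, or for the highest mean CPM or the largest log2 fold change in their role among genes that reached 10 counts in each library. *tkv* was named in addition, as the remaining gene of its group. The Hedgehog genes, the further genes and the marker lists were chosen with earlier results of these data known. Python 3.11.15, pandas 2.3.3 and matplotlib 3.10.9 were used for tables and plots.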

Additional observations from a re-analysis of the deposited data

How the results depend on the processing

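Of the values of single Hedgehog genes under the alternatives, 141 kept their direction and their side of the threshold and 15 changed sign. With library totals alone, *boi* was at -0.017, *fu* at -0.049 and *ci* at -0.17 on the log2 scale, and 4 Hedgehog genes were positive. With totals that hold alignments to several places *Su(fu)* was at 0.085 and *Smurf* at 0.049. Without the replicate block *Su(fu)* was at 0.045 and 1 Hedgehog gene, *ihog*, had an unadjusted p under 0.05. Leaving out replicates or single libraries gave -3.81 to 6.11 for *hh*, -0.026 to 0.40 for *boi*, -0.027 to 0.44 for *fu*, -0.32 to 0.35 for *Su(fu)*, -0.56 to 0.55 for *ci* and -0.23 to 0.13 for *Smurf*, with 5 to 8 Hedgehog genes positive, 0 to 1 with an unadjusted p under 0.05 and 5 to 10 of the further genes. The causes were not tested.

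Over all genes, 189 were called higher and 52 lower. The counts were 108 and 87 with library totals alone, 102 and 16 with filterByExpr, 100 and 13 with a minimum of 10 counts, 137 and 16 with totals that hold alignments to several places, 260 and 86 with DESeq2 and 227 and 73 without the block. They were 55 to 330 and 18 to 150 with libraries left out, lowest without replicate 2 and highest without Bam-GFP replicate 2. The share of calls that were higher was 78.4%, and 55.4% with library totals alone, 89.5% with totals that hold alignments to several places and 88.5% with a minimum of 10 counts. The first of these scalings moved the median of all genes by -0.21 and the second by 0.12. *hh* could not be fitted under the filters or without replicate 3, nor *ptc* with a minimum of 10 counts. *hh*, at 0 in 4 libraries, and *ptc*, with 8 counts in its lowest library, were limited by depth.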
